A study of Homo sapiens with 6 samples.

Results

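The mitochondrial ribosomal proteins described here are 76 of the 19330 genes in the count table. Their symbols start with MRPL (48 genes, large subunit) or MRPS (28 genes, small subunit), a choice by name alone that used no measured value. The subunit is also read from the symbol, so MRPS30 and MRPS36, whose proteins lie elsewhere, are counted with the small subunit. The counts come from RNA-Seq of K562, an established human chronic myelogenous leukemia line of the erythroid lineage. One condition, sgCtrl, had received pLentiCRISPRv2 lentivirus with control sgRNAs, which target OR11A1 and OR2M49 in the labels and EGFP, or OR11A1 and OR2M4, in the study's methods. The other, sgN6AMT1, had received the same vector with sgRNAs against N6AMT1, a methyltransferase gene. Cells of both conditions carried Cas9, were selected with puromycin and were collected 10 days after infection, and the 3 libraries of each condition came from separate transductions. They are transduced populations rather than clones, and the sgRNA in each library is not given in the sources used here.

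Mitochondrial ribosomes translate the 13 open reading frames (ORFs) of mitochondrial DNA (mt-DNA), all of which encode subunits of the respiratory chain and ATP synthase. Their rRNAs are transcribed from mt-DNA, but every one of their proteins is encoded in the nucleus, translated in the cytosol and imported. Many of these proteins descend from bacterial ribosomal proteins and the others are found only in mitochondria. The small subunit binds the mRNA and holds the decoding centre, and the large subunit holds the peptidyl transferase centre and the exit tunnel at the inner membrane.

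The total count was 742470, 866894 and 866155 for sgCtrl replicates 1 to 3 and 959319, 5526904 and 4062363 for those of sgN6AMT1, of which replicates 2 and 3 were the deepest. For N6AMT1 itself 6, 5 and 9 reads were counted in the sgCtrl libraries and 0, 18 and 16 in those of sgN6AMT1, or 8.08 ± 2.31 against 2.40 ± 2.10 cpm (SD, n = 3), where cpm are counts scaled to a common library size. The conditions did not overlap, and the two-sided exact permutation p was 0.1, the smallest that 3 libraries against 3 allow. Of the markers of the cell line, HBG1, HBG2, GATA1, TAL1, ABL1, BCR and KLF1 had counts in every library. Of the markers of other cells, CD3E reached at most 0.492 cpm, COL1A1, ALB and PECAM1 at most 8.08 cpm, and EPCAM lay at 94.0 to 170 cpm. On the first principal component (48.8% of variance) the sgCtrl libraries lay apart from the sgN6AMT1 libraries.

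Few transcripts of mitochondrial ribosomal proteins passed the test in sgN6AMT1 cells, and they lay in both directions. Of the 76 genes, 75 passed the filter on low counts and were tested among 8324 genes with edgeR's quasi-likelihood test, with Benjamini-Hochberg adjustment over all 8324. At an adjusted p under 0.05, 3 of the 75 (4%) were called, against 9.85% of all genes tested. MRPL53 and MRPL38 rose, against 5.09% of all genes called higher, and MRPS6 fell, against 4.76% called lower. Before adjustment 18 of the 75 (24%) had a p under 0.05, 11 higher and 7 lower, against 26.2% of all genes tested. For 21 of the 75 (28%) the 3 normalized counts of one condition lay wholly above or below those of the other, against 29.2% of all genes tested. With DESeq2, which called 6.4% of 9839 genes, 0 of the 75 were called. The shares of these genes past each of these thresholds were thus at or below those of all genes.

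The log2 fold changes of the 75 genes (sgN6AMT1 against sgCtrl) ran from -0.88 to 0.98, with a median of 0.07 beside 0.01 for all genes tested. Of them, 42 were positive and 33 negative. Their standard errors were 0.14 to 0.34 with a median of 0.19. In simulated counts made from these libraries the same fit recovered 81 of 98 genes given a log2 change of 1 and 84 of 84 given one of 2. The simulation gave every gene the same coefficient of variation between libraries, 0.16. All 75 estimates were smaller than 1 in size, and changes between 0 and 1 were not simulated. The plot of log2 fold changes by subunit gives all 75 values.

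**Figure D1:**
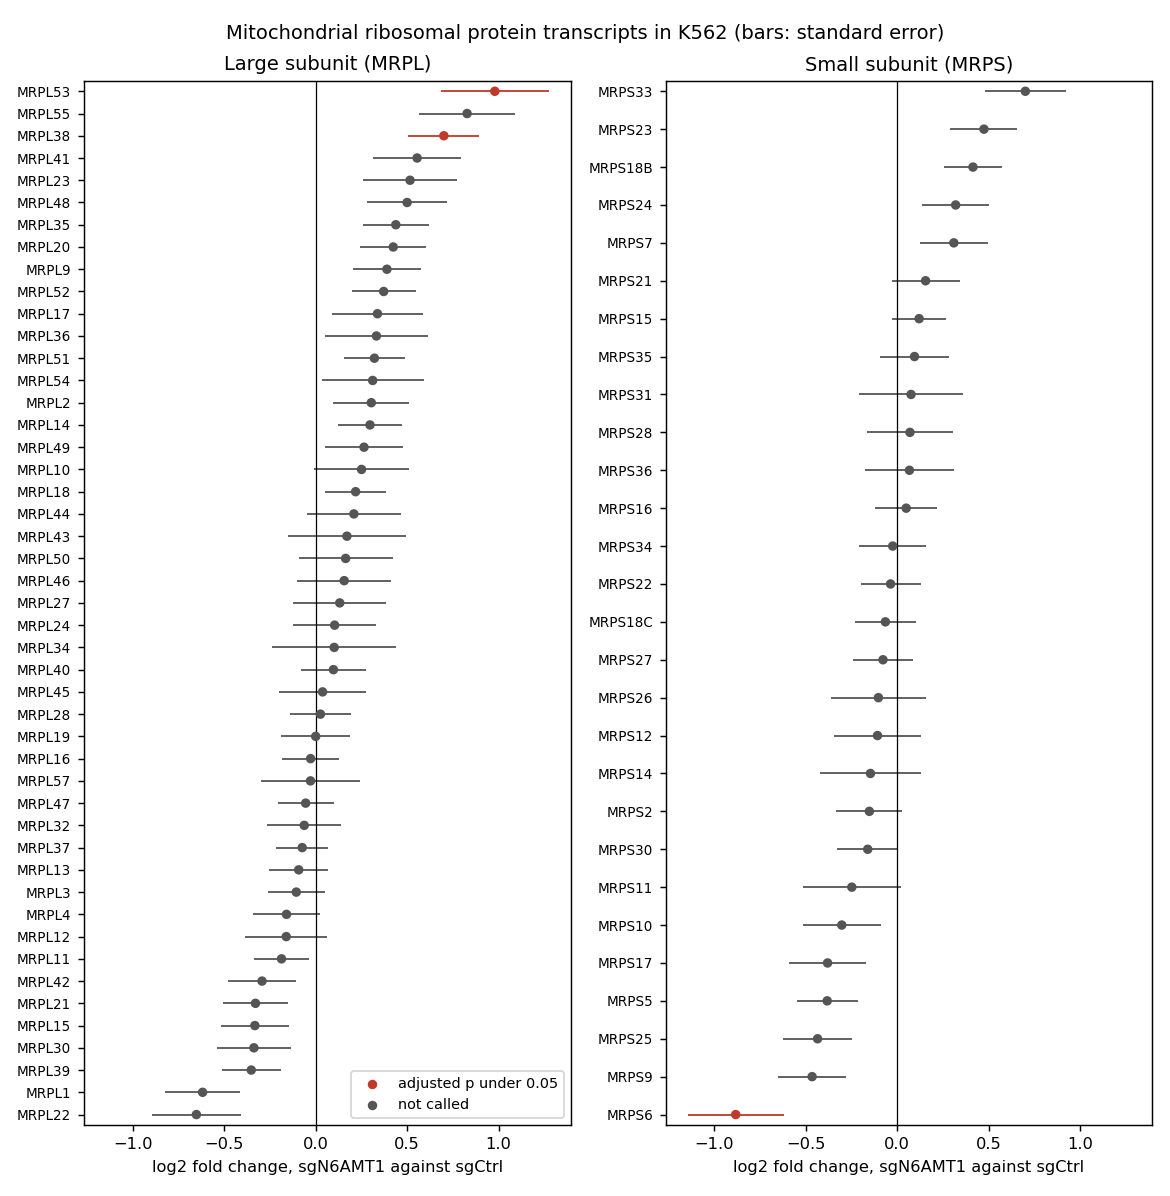
Log2 fold change of each tested mitochondrial ribosomal protein gene, sgN6AMT1 against sgCtrl, ordered by value in the large and the small subunit; points are estimates from edgeR and bars their standard errors (3 libraries a condition), with genes past the adjusted p threshold in red. Values spread on both sides of 0 in both subunits, and only MRPL53, MRPL38 and MRPS6 are past the threshold.

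In the large subunit, 30 of 47 tested MRPL genes had positive and 17 negative log2 fold changes, with a median of 0.13 and quartiles of -0.08 and 0.33. MRPL53 and MRPL38 were the 2 called (4.26%, against 9.85% of all genes tested). Unadjusted p was under 0.05 for 11 MRPL genes (23.4%, against 26.2% of all genes tested). Of these, MRPL20, MRPL35, MRPL38, MRPL41, MRPL48, MRPL52, MRPL53 and MRPL55 were higher and MRPL1, MRPL22 and MRPL39 were lower in sgN6AMT1. In the small subunit, 12 of 28 MRPS genes were positive and 16 negative, with a median of -0.05 and quartiles of -0.18 and 0.10. MRPS6 was the 1 called (3.57%, against 9.85% of all genes tested). Unadjusted p was under 0.05 for 7 MRPS genes (25%, against 26.2% of all genes tested). Of these, MRPS18B, MRPS23 and MRPS33 were higher and MRPS5, MRPS6, MRPS9 and MRPS25 were lower. The difference between the subunit medians was not tested, and with library values corrected for transcript GC content and length the median of MRPL genes was 0.0026 and that of MRPS genes -0.05. Without sgCtrl replicate 1 the median of MRPL genes was 0.022.

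The spread between control libraries was as large as the subunit medians. Relative to the sgCtrl mean of each gene, the median MRPL gene stood at -0.02, -0.04 and 0.15 on the log2 scale in the 3 sgCtrl libraries and at 0.07, 0.19 and 0.11 in the 3 sgN6AMT1 libraries. The median MRPS gene stood at -0.09, -0.08 and 0.15 in sgCtrl and at -0.06, -0.06 and 0.02 in sgN6AMT1. The third sgCtrl library was the highest of the sgCtrl libraries for both subunits, and the conditions overlapped in both.

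As a share of all counts, MRPL genes took 0.379%, 0.377% and 0.422% in sgCtrl and 0.388%, 0.406% and 0.406% in sgN6AMT1, or 0.393% ± 0.0256 against 0.400% ± 0.0108 (SD, n = 3). MRPS genes took 0.246%, 0.259% and 0.285% in sgCtrl and 0.268%, 0.257% and 0.253% in sgN6AMT1, or 0.263% ± 0.0202 against 0.259% ± 0.0074. Both shares overlapped between the conditions, and the means differed by less than the SD. The 95% Wilson intervals, which cover counting error only, were widest in the shallow libraries, from 0.365% to 0.393% for MRPL genes in the first sgCtrl library. MRPL counts per MRPS count were 1.54, 1.46 and 1.48 in sgCtrl and 1.45, 1.58 and 1.61 in sgN6AMT1, again overlapping. In bulk RNA, fewer cells with a transcript and less of it per cell cannot be told apart.

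The mt-mRNAs that these ribosomes translate were measured in the same libraries. The 13 mt-DNA-encoded ORFs took 4.29% ± 1.03 of counts in sgCtrl and 1.07% ± 0.76 in sgN6AMT1, without overlap. Counts on mitochondrial ribosomal protein genes per count on the ORFs were 0.119, 0.145 and 0.221 in sgCtrl and 0.342, 0.813 and 1.43 in sgN6AMT1. With the ORFs left out of the total, MRPL genes took 0.410% ± 0.0227 and 0.404% ± 0.0080, and MRPS genes 0.275% ± 0.0181 and 0.262% ± 0.0095.

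**Figure D2:**
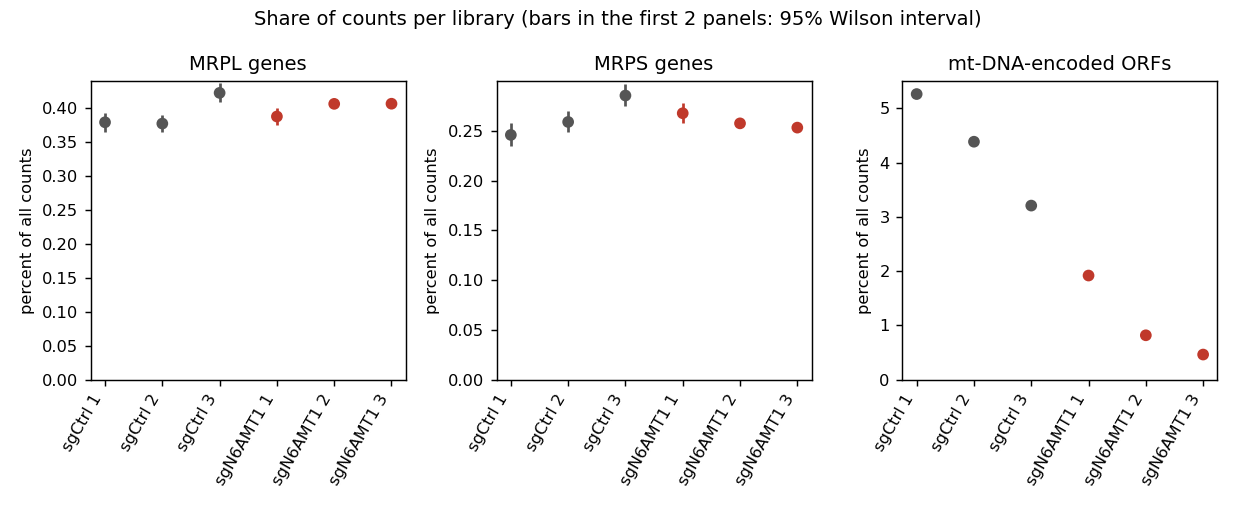
Percent of all counts on MRPL genes, on MRPS genes and on the 13 mt-DNA-encoded ORFs in each library (sgCtrl dark, sgN6AMT1 red), with axes that start at 0; vertical bars in the first 2 panels are 95% Wilson intervals. MRPL shares lie at 0.377% to 0.422% and MRPS shares at 0.246% to 0.285% with the conditions overlapping, while every sgN6AMT1 library lies below every sgCtrl library for the ORFs.

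MRPL53, a mitochondria-specific protein of the large subunit, had the highest log2 fold change of the 75. The gene is on chromosome 2 (GRCh38, 74471982 to 74472687, minus strand, 3 exons in the GENCODE canonical transcript). Its normalized counts were 22.8, 13.8 and 15.3 cpm in sgCtrl and 26.3, 35.4 and 37.0 cpm in sgN6AMT1, from 17, 12 and 13 reads counted in sgCtrl. All 3 sgN6AMT1 values were above the sgCtrl values, although by few reads. The log2 fold change was 0.98 (SE 0.29, adjusted p = 0.0428, edgeR).

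MRPL38, a mitochondria-specific protein of the central protuberance, the crown of the large subunit that faces the small one, also rose. The gene is on chromosome 17 (75898644 to 75905093, minus strand, 9 exons). Its normalized counts were 60.5, 45.0 and 55.4 cpm in sgCtrl and 87.5, 80.3 and 93.3 cpm in sgN6AMT1. The conditions did not overlap, and the log2 fold change was 0.70 (SE 0.19, adjusted p = 0.0298, edgeR). It had the smallest adjusted p of the 75 genes.

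MRPS6, which belongs to the bacterial S6 family of the small subunit, was the only one called lower. The gene is on chromosome 21 (34073224 to 34143034, plus strand, 3 exons). Its normalized counts were 59.1, 46.15 and 46.0 cpm in sgCtrl and 29.5, 33.6 and 19.0 cpm in sgN6AMT1. All 3 sgN6AMT1 values were below the sgCtrl values, and the third was the lowest. The log2 fold change was -0.88 (SE 0.26, adjusted p = 0.0403, edgeR). N6AMT1 lies on the same chromosome, whose 83 tested genes had a median of -0.26, and whether that bears on MRPS6 was not tested.

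The promoter windows of the 3 called genes are shown because they differ in base composition and in the motifs they hold. They are RefSeq sequences (GRCh38.p14) from 250 bases before to 50 after the start site, 5′ to 3′ on the strand of the gene, at chr2:74472631-74472930 for MRPL53, chr17:75904835-75905134 for MRPL38 and chr21:34073328-34073627 for MRPS6. Capitals mark CCGGAAG, an ETS family motif, and AAGATGGCG, a YY1 motif, on either strand.
MRPL53: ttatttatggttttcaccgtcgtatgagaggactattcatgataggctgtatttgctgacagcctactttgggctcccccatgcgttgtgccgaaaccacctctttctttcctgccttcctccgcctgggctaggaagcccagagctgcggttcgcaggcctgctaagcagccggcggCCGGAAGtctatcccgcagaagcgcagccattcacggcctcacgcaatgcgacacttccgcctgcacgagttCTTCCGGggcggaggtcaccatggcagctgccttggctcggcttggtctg
MRPL38: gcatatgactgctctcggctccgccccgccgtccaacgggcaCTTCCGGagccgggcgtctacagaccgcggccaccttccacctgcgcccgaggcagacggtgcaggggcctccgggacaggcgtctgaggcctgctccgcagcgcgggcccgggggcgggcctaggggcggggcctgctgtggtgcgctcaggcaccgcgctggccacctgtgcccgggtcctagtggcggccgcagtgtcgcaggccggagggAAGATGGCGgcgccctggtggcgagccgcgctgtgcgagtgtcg
MRPS6: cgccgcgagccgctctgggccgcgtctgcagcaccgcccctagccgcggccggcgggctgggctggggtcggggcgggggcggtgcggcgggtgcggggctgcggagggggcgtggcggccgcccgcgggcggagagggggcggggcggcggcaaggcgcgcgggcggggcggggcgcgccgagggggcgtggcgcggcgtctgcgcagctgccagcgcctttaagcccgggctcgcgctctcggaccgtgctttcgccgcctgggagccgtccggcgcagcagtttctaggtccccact
The window of MRPL53 holds the ETS motif once on each strand, and that of MRPL38 holds 1 ETS and 1 YY1 motif. The window of MRPS6 holds neither motif, nor GCGCANGCG, an NRF1 motif. Its GC content is 82%, beside 75.3% for MRPL38 and 58.7% for MRPL53. The window of MRPS6 begins at 34073328, inside the gene as annotated in GENCODE (first base 34073224). Bases before that first base were not searched.

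The genes beside and within the called genes were read from the same fit. Whether the counting used the strand is not given in the sources used here, so reads from overlapping genes may have been assigned to either. SLC5A3, the sodium/myo-inositol cotransporter gene, lies within MRPS6 on the same strand (34073578 to 34106260) and shares exon sequence with it. Its normalized counts were 30.9, 29.996 and 20.0 cpm in sgCtrl and 23.2, 23.5 and 24.7 cpm in sgN6AMT1, which overlapped, with a log2 fold change of -0.17 (SE 0.28, adjusted p = 0.746, edgeR). The start site of the MRPS6 window in RefSeq is the first base of SLC5A3 in GENCODE. ATP5O, the next gene of the table at lower coordinates, had a log2 fold change of -0.03 (adjusted p = 0.924, edgeR), and KCNE2 on the other side had 0 counts in all libraries, which allows up to 0.543 to 4.04 cpm.

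Beside MRPL53, MOGS, which trims N-glycans in the endoplasmic reticulum, also rose, from 41.7, 65.8 and 49.5 to 101, 74.3 and 88.2 cpm (log2 fold change 0.72, SE 0.21, adjusted p = 0.0397, edgeR). TTC31, on its other side, had a log2 fold change of -0.30 (SE 0.47, adjusted p = 0.735). CCDC142 overlaps MRPL53 on the same strand. Its counts were 1, 2 and 0 in the sgCtrl libraries and 4, 35 and 37 in those of sgN6AMT1, too few to be tested. Scaled for depth these were 1.34, 2.31 and 0 cpm against 4.22, 6.39 and 9.51 cpm. TRIM65, beside MRPL38, had a log2 fold change of -0.16 (SE 0.34, adjusted p = 0.808). These neighbours were named for their position alone.

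Just outside the threshold were MRPL55, a large subunit protein, and MRPS33, a mitochondria-specific small subunit protein. MRPL55 had 40.3, 25.4 and 35.4 cpm in sgCtrl and 41.1, 56.0 and 75.8 cpm in sgN6AMT1, which came close without overlapping, and a log2 fold change of 0.83 (SE 0.26, adjusted p = 0.0502, edgeR). MRPS33 had 43.0, 35.8 and 51.9 cpm in sgCtrl and 87.5, 66.25 and 63.5 cpm in sgN6AMT1. Its log2 fold change was 0.70 (SE 0.22, adjusted p = 0.0507, edgeR), the highest of the small subunit.

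At the low end of the large subunit stood MRPL22, which lines the exit tunnel, and MRPL1, of the stalk beside the site where tRNAs leave. MRPL22 had 83.3, 77.3 and 73.1 cpm in sgCtrl and 59.0, 61.3 and 30.9 cpm in sgN6AMT1 (log2 fold change -0.65, SE 0.24, adjusted p = 0.0960, edgeR). The third sgN6AMT1 library stood well below the other two. MRPL1 had 71.2, 66.9 and 79.0 cpm in sgCtrl and 53.7, 50.0 and 39.8 cpm in sgN6AMT1 (log2 fold change -0.62, SE 0.20, adjusted p = 0.0606, edgeR). Neither gene overlapped between the conditions, and neither was called. Both were picked for their low log2 fold changes, and 29.2% of all genes tested did not overlap. MRPL39, the next lowest, lies like MRPS6 on chromosome 21 (25585656 to 25607517) and went from 129 ± 13.0 to 101 ± 5.51 cpm (SD, n = 3), with a log2 fold change of -0.35 and an adjusted p of 0.174 in edgeR.

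In the small subunit, the lowest values after MRPS6 were those of MRPS9 (101 ± 9.37 against 73.6 ± 10.7 cpm, log2 fold change -0.47) and MRPS25 (90.3 ± 16.9 against 67.1 ± 3.70 cpm, log2 fold change -0.44). The highest after MRPS33 were those of MRPS23 (81.3 ± 15.8 against 113 ± 8.97 cpm, log2 fold change 0.47) and MRPS18B (119 ± 8.58 against 158 ± 15.8 cpm, log2 fold change 0.41). The conditions did not overlap for any of these 4 genes (SD, n = 3), and edgeR's adjusted p was 0.106 to 0.149. These genes too were picked by log2 fold change, beside 29.2% of all genes tested without overlap.

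The genes were also grouped by ancestry and by part of the ribosome. Of 28 tested large subunit genes with a bacterial counterpart, 15 were positive and 13 negative, with a median log2 fold change of 0.01, 0 called and 4 (14.3%) with an unadjusted p under 0.05 in edgeR. Among the 18 tested mitochondria-specific genes of the large subunit, 14 were positive and 4 negative, with a median of 0.19. MRPL53 and MRPL38 were the 2 called (11.1%, near the 9.85% of all genes), and the unadjusted p was under 0.05 for 6 (33.3%, against 26.2% of all genes). In the small subunit, 16 genes with a bacterial counterpart had a median of -0.13, 6 positive and 10 negative, and MRPS6 was the 1 called (6.25%). The 9 mitochondria-specific genes of the small subunit had a median of -0.03, 4 positive and 5 negative, with 0 called and 3 (33.3%) at an unadjusted p under 0.05. MRPL55, MRPS28, MRPS30 and MRPS36 were in none of these 4 lists. Of 8 genes of the central protuberance 7 were positive, with a median of 0.19 and MRPL38 the 1 called (12.5%). With library values corrected for GC content and length, medians were 0.06 for the central protuberance and 0.12 for the mitochondria-specific genes of the large subunit. The corrected median was -0.06 for large subunit genes with a bacterial counterpart, and -0.16 and -0.05 for the small subunit genes with and without one.

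Several symbols do not give the protein's place. MRPS30 is a protein of the large subunit despite its name, and had 138 ± 22.6 cpm in sgCtrl and 123 ± 6.61 cpm in sgN6AMT1 (SD, n = 3; log2 fold change -0.16, SE 0.17). MRPS36 belongs to the oxoglutarate dehydrogenase complex, and its sgCtrl values of 39.0, 55.4 and 89.6 cpm enclosed the sgN6AMT1 values of 59.0, 71.7 and 61.2 cpm (log2 fold change 0.07, SE 0.24). MRPS18B and MRPS18C are separate proteins of the bacterial S18 family. MRPS18C, the one closest to S18 by place, had 111 ± 7.27 against 107 ± 9.95 cpm (log2 fold change -0.07, SE 0.17), which overlapped.

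Other genes at sites of known function overlapped between the conditions. MRPL12, of the stalk that recruits translation factors, had 52.4, 71.5 and 54.2 cpm in sgCtrl and 43.2, 65.3 and 47.3 cpm in sgN6AMT1 (log2 fold change -0.16, SE 0.22). MRPL23, at the mouth of the exit tunnel, had 52.4, 26.5 and 42.4 cpm in sgCtrl and 44.3, 53.3 and 70.7 cpm in sgN6AMT1 (log2 fold change 0.52, SE 0.26). MRPS12, of the decoding centre, had 40.3, 42.7 and 68.4 cpm in sgCtrl and 39.0, 45.3 and 54.0 cpm in sgN6AMT1 (log2 fold change -0.11, SE 0.24). In edgeR their adjusted p-values were 0.697, 0.211 and 0.820.

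The level of the 75 tested genes spanned 18.1 cpm (MRPL43) to 273 cpm (MRPL37) as the mean of 6 libraries. Per kb of GENCODE canonical transcript, the highest in the large subunit were MRPL21 (207 cpm per kb), MRPL37 (184) and MRPL40 (174), and in the small subunit MRPS15 (270), MRPS22 (169) and MRPS24 (152). The lowest, MRPL42 at 6.06 cpm per kb, has a canonical transcript of 15557 bases, so its level depends on which transcript is made. None of these abundant genes was called, beside 9.85% of all genes tested. MRPL37 had 280 ± 24.0 cpm in sgCtrl and 265 ± 16.9 in sgN6AMT1, and MRPS15 had 246 ± 25.4 and 268 ± 27.9 (SD, n = 3), with log2 fold changes of -0.07 and 0.12. For MRPL21, MRPL40, MRPS22 and MRPS24 the log2 fold changes were -0.33, 0.10, -0.04 and 0.32, with edgeR's adjusted p from 0.242 to 0.919. MRPS24 shares exons with an annotated readthrough transcript, so its counts may be split.

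MRPL33 was the 1 gene that did not pass the filter. Its counts were 3, 7 and 2 in the sgCtrl libraries and 6, 37 and 29 in those of sgN6AMT1, or 4.03, 8.08 and 2.36 against 6.32, 6.75 and 7.46 cpm, which overlapped.

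The log2 fold change went with the GC content of the transcript, in these genes as in all others. Across the 75 genes Spearman's rho was 0.35, and across 8147 nuclear genes it was 0.26, given as descriptions because genes of the same libraries are not independent. In the 25 genes of lowest GC (34.8% to 44.6%) the median log2 fold change was -0.06, beside -0.10 for 3197 other genes in that range. It was 0.05 in the middle 25, beside 0.03 for 1758 other genes. In the 25 of highest GC (52.3% to 66.7%) it was 0.17, beside 0.16 for 2688 other genes. After correction of each library for GC content and length the 3 medians were -0.05, 0.0011 and -0.02, and rho over the 75 was 0.04.

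The correction also moved single genes. MRPL53 and MRPL38, with GC contents of 56.9% and 62.2%, had corrected log2 fold changes of 0.83 and 0.48 and edgeR's adjusted p of 0.0671 and 0.0943. MRPS6 stayed past the threshold at -0.98 (adjusted p = 0.0210). MRPS33, MRPS23 and MRPL35 passed it after correction, the first of these at 0.81 (adjusted p = 0.0161). In the corrected fit 4 of the mitochondrial ribosomal protein genes were called, beside 904 of 8160 over all genes.

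**Figure D3:**
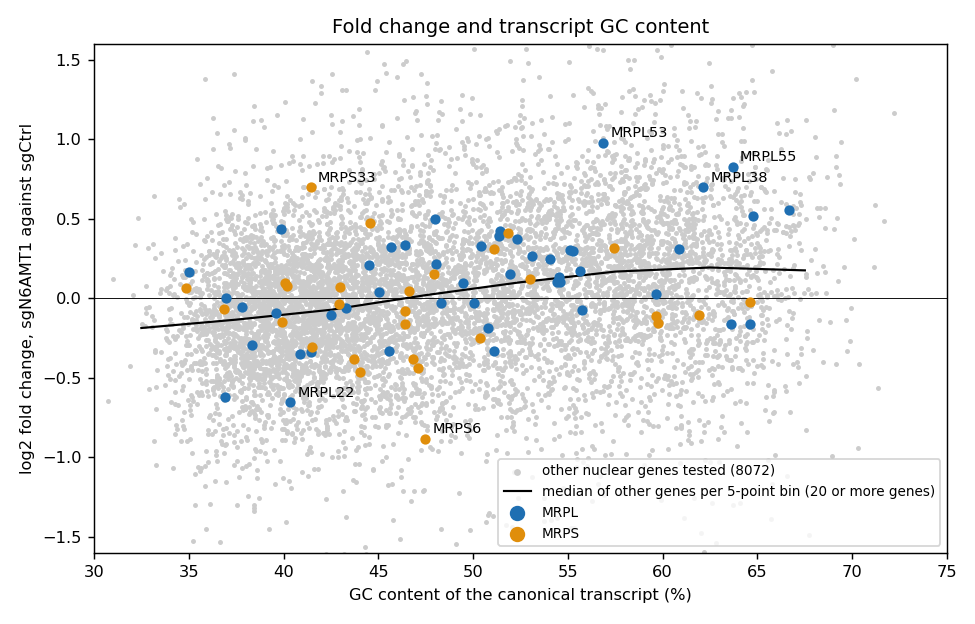
Log2 fold change (sgN6AMT1 against sgCtrl) against the GC content of the GENCODE canonical transcript in percent for MRPL genes (blue), MRPS genes (orange) and 8072 other nuclear genes tested (grey), with the median of the other genes in bins of 5 percentage points with 20 or more genes as a line; 76 other genes lie outside the axes. The line rises from below 0 to above 0, and the mitochondrial ribosomal protein genes lie around it, with MRPL53, MRPL55 and MRPS33 above and MRPS6 and MRPL22 below.

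Each call was lost when certain single libraries were left out. With any 1 of the 3 sgCtrl libraries left out, 0 of the 75 genes were called. Calls over all genes were fewer in those fits as well, at 301 of 8594 without replicate 1, 220 of 8651 without replicate 2 and 752 of 8626 without replicate 3. MRPL53 was then at 1.21, 0.83 and 0.90 without replicates 1, 2 and 3, MRPL38 at 0.79, 0.58 and 0.73, and MRPS6 at -0.76, -0.95 and -0.95, with edgeR's adjusted p from 0.0561 to 0.190. Without the first sgN6AMT1 library all 3 stayed called and MRPL55 was added. Without the second, MRPS6 alone was called, at -1.13 (adjusted p = 0.0368), and without the third, MRPS33 alone was called while MRPS6 was at -0.64 (adjusted p = 0.137). With the deep libraries thinned to 858710 counts, MRPL38 alone was called. Calls over all genes also varied between these fits. They were 951 of 8477 without the first sgN6AMT1 library, 495 of 8456 without the second and 538 of 8449 without the third. After thinning they were 636 of 8193. In DESeq2 the adjusted p was 0.107 for MRPL53, 0.0600 for MRPL38 and 0.0538 for MRPS6.

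**Figure D4:**
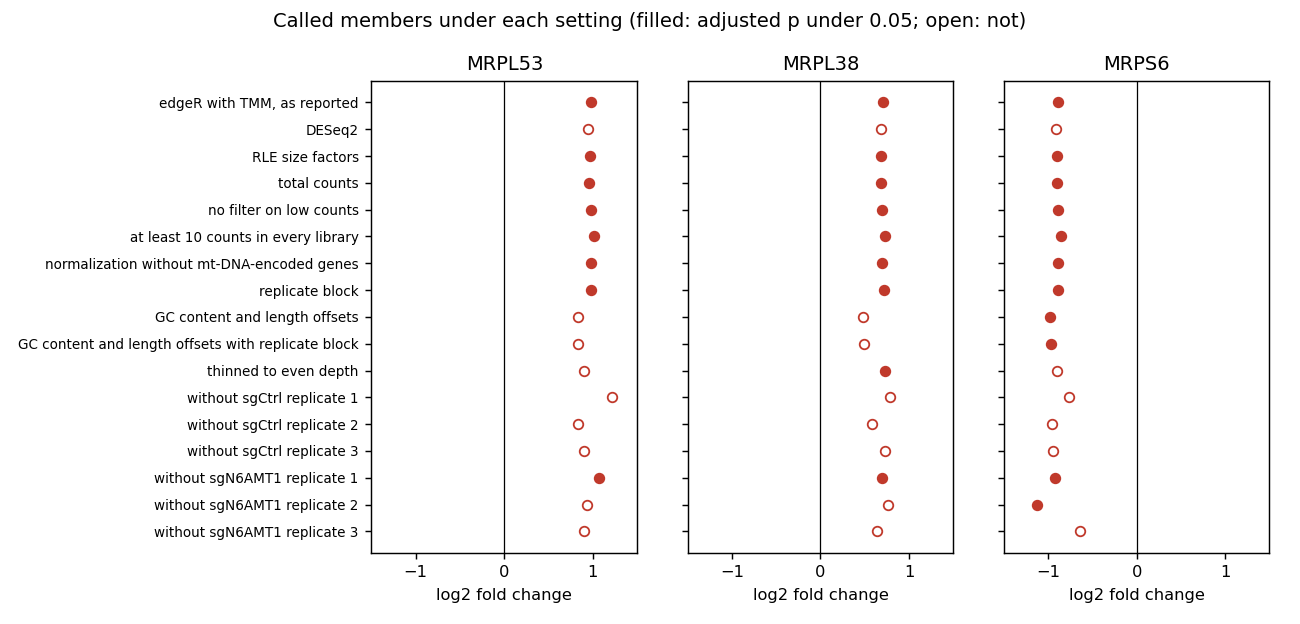
Log2 fold change of MRPL53, MRPL38 and MRPS6 under the reported fit and each alternative (rows), filled where the adjusted p is under 0.05 and open where it is not. The sign is the same in every setting for each gene, while the call is lost for all 3 genes with DESeq2 and without any 1 of the sgCtrl libraries.

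Other genes of mitochondrial translation, listed by role, held 0 calls, against 9.85% of all genes tested. Among 6 mitochondrial ribosomal proteins with other symbols, PTCD3 had a log2 fold change of 0.18, and DAP3, a GTP-binding protein of the small subunit, AURKAIP1, CHCHD1, GADD45GIP1 and ICT1 had -0.26 to -0.11. None of the 6 had an unadjusted p under 0.05, against 26.2% of all genes tested. Of 24 tested genes for assembly of the ribosome and modification of its rRNA, 16 were positive and 8 negative. The positive share was 66.7%, against 50.8% of all genes tested. The 24 had a median of 0.23, and of 0.21 after correction for GC content and length. Unadjusted p was under 0.05 for 5 of them (20.8%, against 26.2% of all genes), all positive. These were MTG2 (0.60) and NOA1 (0.53), which are GTPases, ERAL1 (0.45), an rRNA chaperone of the small subunit, METTL17 (0.45), and RPUSD4 (0.66), a pseudouridine synthase. Their adjusted p-values in edgeR were 0.0972 to 0.186. Of 17 translation factors, 8 were positive and 9 negative with a median of -0.05. Unadjusted p was under 0.05 for 1 of the 17 (5.88%, against 26.2% of all genes). This was the elongation factor TSFM (0.49, SE 0.21, adjusted p = 0.152, edgeR).

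The 76 genes lie on 21 chromosomes. An annotated protein-coding gene starts head to head within 1000 bases for 17 of them (22.4%), against 1165 of 8135 tested protein-coding genes (14.3%). In 13 such pairs both genes were tested, and 6 had the same sign. MRPL46 and MRPS11 form such a pair with each other and had log2 fold changes of 0.16 (SE 0.26) and -0.25 (SE 0.27). PSMA2, a proteasome subunit head to head with MRPL32, rose (log2 fold change 0.56, adjusted p = 0.0429, edgeR), and SKA3, a kinetochore protein head to head with MRPL57, fell (-0.83, adjusted p = 0.0285, edgeR), while MRPL32 and MRPL57 were at -0.06 and -0.03. PSMA2 and SKA3 were picked from these pairs once their values were known. An annotated protein-coding gene overlaps 36 of the 76, and on the same strand with shared exons 10 of them, and 35 have at least 1 pseudogene named after them, whose reads the counting may have divided.

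RefSeq promoter windows were matched for 67 of the 76 genes and 6814 tested genes, and were searched on both strands. The ETS motif CCGGAAG was in 27 of the 67 (40.3%, against 23.6% of all tested genes), and the YY1 motif AAGATGGCG was in 12 (17.9%, against 5.05%). The NRF1 motif GCGCANGCG, for the nuclear respiratory factor, was in 13 (19.4%, against 17.3%). The matches are letters in a window and not shown to be sites. The tested genes with the ETS motif had a median log2 fold change of 0.09 and those without it -0.01. With and without the YY1 motif the medians were 0.16 and 0.03, and for NRF1 0.04 and 0.05. All these medians are of log2 fold changes not corrected for GC content and length, and their differences were not tested. The window of MRPL46, which holds the YY1 motif just after its start site, faces that of MRPS11 (chr15:88467339-88467638).
MRPL46: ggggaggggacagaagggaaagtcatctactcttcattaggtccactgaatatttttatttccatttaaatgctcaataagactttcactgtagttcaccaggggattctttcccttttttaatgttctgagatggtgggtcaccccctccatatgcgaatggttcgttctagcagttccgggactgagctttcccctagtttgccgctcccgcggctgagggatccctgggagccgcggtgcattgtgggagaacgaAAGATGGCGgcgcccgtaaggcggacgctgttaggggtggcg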

How the data were processed

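RNA was taken from 3 sgCtrl and 3 sgN6AMT1 libraries of K562 cells, grouped by their titles. According to the study's methods, lysates were cleared and their total RNA was depleted of rRNA for stranded libraries (the labels list polyA RNA), and reads of 60 nt were trimmed with cutadapt (minimum length 15, quality cutoff 2) and mapped with HISAT2 to GRCh38, Ensembl release 84. The authors deposited raw gene counts, with no normalization. The counting tool and the treatment of strand and of multi-mapped reads are not given in the sources used here. Depth was low in the sgCtrl libraries and in sgN6AMT1 replicate 1 (742470 to 959319 counts), so counting error is larger in these. A count of 0 allows 3 counts, or 0.543 to 4.04 cpm.

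Genes were filtered with filterByExpr (minimum count 10, minimum total 15), normalized by TMM and tested with no covariate by glmQLFTest (edgeR 4.0.16, R 4.3.3), with Benjamini-Hochberg adjustment over 8324 genes and a threshold of 0.05. The fit was tested on simulated data, in which it called 9 of 8118 unchanged genes. Normalized counts are TMM-normalized cpm. Alternatives were DESeq2 1.42.0, other size factors and filters, offsets for GC content and length (8160 genes), thinning, a replicate block and leaving out each library. Symbols were matched to GENCODE 44 for 18844 of 19330 genes, 860 of them through an older symbol, and for all 76 mitochondrial ribosomal protein genes. Levels, positions and GC content use its canonical transcripts. The head-to-head search allowed an overlap of up to 200 bases.

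The genes named were the called genes with their neighbours and overlapping genes, the 3 highest and 3 lowest log2 fold changes of each subunit at 20 cpm or more, the 3 highest levels per kb of each subunit, genes of special place or role, and those that failed the filter. Further genes are named in the text for an unadjusted p under 0.05 or a head-to-head position. The genes, lists and tests were chosen with earlier results of these data known. The libraries of a condition are separate transductions and may also differ in sgRNA, and the p-values measure the spread between them. MRPS18A was not analysed here, and a few genes that these rules name are not reported here.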

Additional observations from a re-analysis of the deposited data

How the results depend on the processing

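Of the log2 fold changes of named genes under an alternative, 327 kept their direction and side of the threshold, 23 lost and 19 gained the call, and 15 changed sign, all of them in genes not called in either fit. Across all genes 820 were called, 1373 with offsets for GC content and length together with the replicate block, and 220 to 951 with a library left out. Of the mitochondrial ribosomal protein genes 3 were called with TMM, RLE or total counts and without mt-DNA-encoded genes in the normalization. There were 0 with DESeq2 (630 of 9839 over all genes), 6 without a filter on low counts (1201 of 13874), 5 with at least 10 counts in every library (701 of 7129), 4 with GC offsets (904 of 8160), 8 with GC offsets and the block, 1 after thinning (636 of 8193) and 0 to 4 with a library left out. MRPL genes made 0 of these with DESeq2, 4 without a filter, 1 with GC offsets, 4 with offsets and block, 1 after thinning and 0 to 3 with a library left out, and MRPS genes 0, 2, 3, 4, 0 and 0 to 1, with 2 at 10 counts in every library. The median of MRPL genes was 0.0026 with GC offsets, -0.0094 with offsets and block, and 0.022 to 0.17 with a library left out, lowest without the first sgCtrl library. MRPS medians and the shares of counts moved by less than the replicate spread.

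Signs changed for MRPL40 (-0.0057 with GC offsets, -0.017 with the block added, -0.068 to 0.21 with a library left out), MRPS15 (-0.037 with GC offsets, -0.044 with the block added), MRPS18C (0.013 with GC offsets, 0.017 with the block added, -0.12 to 0.0046 with a library left out) and MRPS12 (0.10 after thinning, -0.24 to 0.17 with a library left out). They also changed for MRPS22 (-0.20 to 0.063) and MRPS36 (-0.17 to 0.44) with a library left out. The cause was not tested.

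With the replicate number as a block, 7 of these genes were called, 5 MRPL and 2 MRPS, and 1195 over all genes. Deviations of same-numbered libraries correlated at -0.00056, 0.083 and 0.19. The libraries of replicate 3 correlated best with each other, while replicate 1 of each condition correlated best with replicate 2 of the other. With 3 libraries a condition, these values cannot settle whether the numbers pair the samples. Totals of 742470 to 866894 counts in sgCtrl limit the precision of genes such as MRPL53.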

Other observations

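MRPS6 and MRPL39 are the 2 mitochondrial ribosomal protein genes on chromosome 21, which also carries N6AMT1 (28872191 to 28885371, minus strand). This chromosome was singled out after its values were seen. Its 83 tested genes had a median log2 fold change of -0.26, with 64 negative and 19 positive, 11 called lower and 0 called higher by edgeR's quasi-likelihood test. The next lowest nuclear chromosome, 4, had a median of -0.11. Relative to the sgCtrl mean, the median gene of chromosome 21 stood at -0.02, 0.01 and 0.04 in the sgCtrl libraries and at -0.32, -0.25 and -0.23 in the sgN6AMT1 libraries. The 10 tested genes at lower coordinates than N6AMT1, where MRPL39 lies, had a median of -0.29, and the 73 at higher coordinates, where MRPS6 lies, had -0.25. Chromosome 21 had the lowest nuclear median under the reported fit and every alternative run, at -0.25 to -0.33. With MRPS6 at -0.88 and MRPL39 at -0.35, both lay below the median of their chromosome. The part of this in either gene's value was not tested.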
